A study of Mus musculus with 2 samples.

Results

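Macrophages and microglia are marked by a shared set of genes for surface receptors, their adaptors, lysosomal enzymes, complement and chemokines, and 36 such genes were looked up by symbol in RNA sequencing of mouse brain neural stem cells. Of these, 33 had a row in the deposited table of 19595 genes, and Trem2, Mrc1 and Msr1 had none in the table analysed here. The symbols were chosen by the counts of these same libraries, in which several of the genes stood lower in the knockdown library, so the values below describe the genes and are no test of them. The knockdown library is labelled sh1 with the genotype KO, and the control library is labelled psicor with the genotype WT. Both were prepared from cells of ICR mice (embryonic day 13) that the labels call brain neural stem cells, and the title of the series names Ccdc25, a coiled-coil domain protein, and its part in neurogenesis. The vector, the promoter that drives it and the number of cultures or animals behind a column are not given in the sources used here. The design text mentions triplicates, while the table holds 1 count column per group, so there was no replicate spread to compare with and no p-value was computed.

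Tissue macrophages and the microglia of the brain arise from blood-forming lineages and not from the neural ectoderm that gives neural stem cells. Their identity depends on the transcription factor PU.1, encoded by Spi1, and on signalling through the receptor for colony-stimulating factor 1, encoded by Csf1r. They engulf dying cells and debris through scavenger and Fc receptors, many of which signal through small membrane adaptors, and they secrete complement C1q, lysozyme and chemokines.

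The macrophage and microglia genes together had 665 counts in the knockdown library and 2471 in the control library. Scaled to a common library size this was 42.2 CPM (counts divided by the scaled library total, on the usual CPM scale) in the knockdown and 147 CPM in the control library, a ratio of 0.288 with a 95% counting interval of 0.264 to 0.313. All ratios are knockdown over control, and each interval, exact and binomial given the total of both counts, reflects the error of counting alone. Fewer cells of a type and less RNA per cell cannot be told apart in such bulk samples. The knockdown library held 16058407 and the control library 16549682 counts in genes. The floor used for a gene at 0, 3 counts, stood for 0.190 CPM in the knockdown and 0.178 CPM in the control library. Each at-least bound for such a gene sets its knockdown count at this floor and takes its control count as exact. Such a bound leaves out the control's counting error, so the upper end of the interval is the weaker bound. Ccdc25 itself had 411 counts in the knockdown and 553 in the control library, a ratio of 0.794 (0.697 to 0.904), so the gene named in the title was lower but within 2-fold, and the name knockdown rests on the labels. All 10 genes listed for neural stem cells and radial glia had rows and were above their control level, with 8646 CPM in the knockdown and 6644 CPM in the control library in sum, so the labelled cell type's markers were present in both.

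Of the 33 genes, 26 were at least 2-fold lower in the knockdown library, 0 were at least 2-fold higher and 7 lay within 2-fold. Over all listed genes, 12.6% were at least 2-fold lower and 11.7% at least 2-fold higher by the same rule, a log2 fold of the count plus 0.5. Counts were low, and low counts pass 2-fold more readily. Among genes with 10 to 99 counts over both libraries 21.3% were at least 2-fold lower, against 18 of the 22 macrophage and microglia genes in that range. Among genes with 100 or more and fewer than 1000 counts the share was 10.3%, against 5 of the 8 members in that range. The interval lay below 1 for 24 of the 26, where 8.37% of all listed genes were at least 2-fold lower with such an interval. The exceptions were C1qa and Cd84. At a threshold of 4-fold, 21 members passed, against 4.47% of all listed genes. The median log2 fold of the 33 genes was -3.75, and -2.13 with genes at 0 placed at 3 counts, beside 0.01 over all listed genes.

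**Figure D1:**
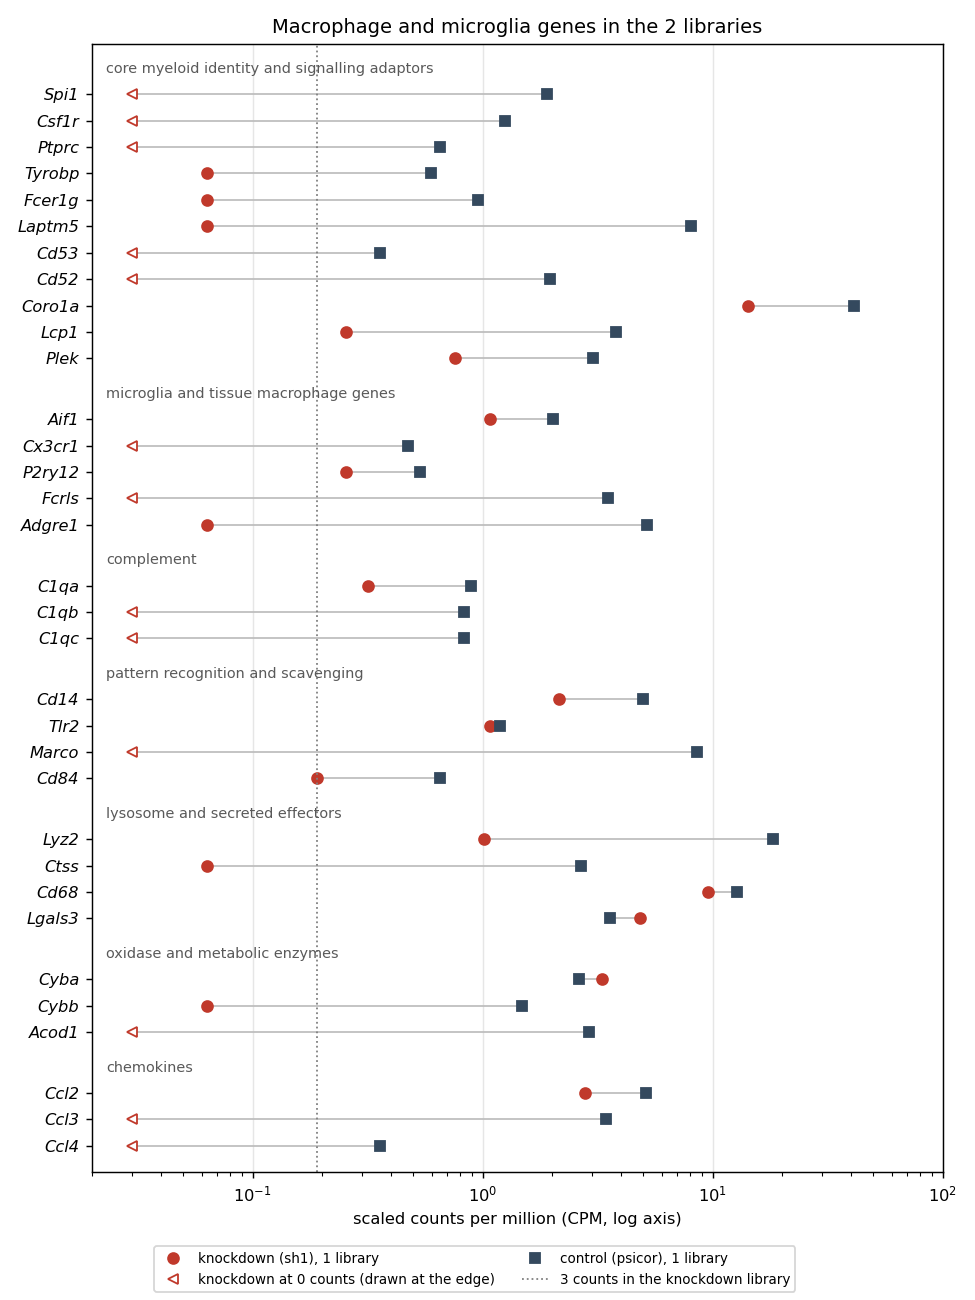
Scaled CPM (log axis) of each of the 33 genes in the knockdown library (circles, or open triangles at the left edge for 0 counts) and the control library (squares), grouped by role, with 1 library per group. For 31 of the 33 genes the knockdown value lies left of the control value, Lgals3 and Cyba being the exceptions, and 13 genes had 0 counts in the knockdown library.

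Many of these genes had no counts at all in the knockdown library. In the knockdown library 13 of the 33 stood at 0 counts, where 1.82% of all listed genes did, and none of the 33 stood at 0 in the control library. At the floor of 3 counts, the bounds of single genes at 0 went up to the 44.9-fold of Marco. Its interval ended at a ratio of 0.0277. Of the 13833 listed genes with at least 20 counts in the control library, 24 (0.173%) had 0 in the knockdown library. Ordered by control count, Marco was second among the 24, with 144 counts, behind the predicted gene Gm10800 with 754. The members were chosen on these same counts, so their place among the 24 is a description.

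The promoters of a few members are shown because they set genes at 0 in the knockdown library beside genes within 2-fold. Marco, Ccl3 and C1qb had 0 knockdown counts, and Cyba and Cd68 lay within 2-fold. The choice was limited to the 10 of 24 members whose window held no annotated exonic base (GENCODE M21). Each line gives the 250 bases before the RefSeq gene start (build GRCm38.p6), 5′ to 3′ in the direction of the gene, and capitals mark GAGGAA or its reverse complement TTCCTC, the core that PU.1 is known to bind. The windows lie on the minus strand, that of Marco at chr1:120505025-120505274, that of Ccl3 at chr11:83649379-83649628, that of C1qb at chr4:136886201-136886450, that of Cyba at chr8:122432941-122433190, and that of Cd68 at chr11:69666171-69666420.
Marco: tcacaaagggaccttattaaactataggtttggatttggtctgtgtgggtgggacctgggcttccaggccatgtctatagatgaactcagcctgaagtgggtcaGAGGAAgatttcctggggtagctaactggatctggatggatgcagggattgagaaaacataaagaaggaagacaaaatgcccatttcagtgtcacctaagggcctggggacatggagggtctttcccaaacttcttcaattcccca
Ccl3: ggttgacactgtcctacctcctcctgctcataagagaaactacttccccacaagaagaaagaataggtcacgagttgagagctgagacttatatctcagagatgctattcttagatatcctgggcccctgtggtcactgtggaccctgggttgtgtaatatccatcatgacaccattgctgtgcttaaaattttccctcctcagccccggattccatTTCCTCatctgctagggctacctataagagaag
C1qb: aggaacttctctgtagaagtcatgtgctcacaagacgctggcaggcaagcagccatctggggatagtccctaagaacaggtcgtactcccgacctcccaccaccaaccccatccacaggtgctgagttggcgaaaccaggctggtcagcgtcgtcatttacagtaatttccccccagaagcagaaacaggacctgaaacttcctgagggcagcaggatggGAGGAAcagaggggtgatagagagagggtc
Cyba: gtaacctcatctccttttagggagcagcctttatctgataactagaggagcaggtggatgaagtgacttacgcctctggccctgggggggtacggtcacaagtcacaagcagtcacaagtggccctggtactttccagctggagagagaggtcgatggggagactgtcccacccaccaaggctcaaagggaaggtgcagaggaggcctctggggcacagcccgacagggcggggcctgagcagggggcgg
Cd68: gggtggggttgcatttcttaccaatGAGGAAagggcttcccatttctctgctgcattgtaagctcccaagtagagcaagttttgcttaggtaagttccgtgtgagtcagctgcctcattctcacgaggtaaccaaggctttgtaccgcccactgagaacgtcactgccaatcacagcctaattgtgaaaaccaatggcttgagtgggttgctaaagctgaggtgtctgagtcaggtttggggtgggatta

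Only members with a RefSeq promoter sequence outside chromosome 18 were searched, so Csf1r and Cd14 were left out. Listed genes were not limited by chromosome. The letters GAGGAA, searched on both strands, stood in the 250 bases before the start of 13 of the 24 members searched (54.2%). They stood there in 25.9% of the 12633 listed genes with such a sequence. Of the 18 searched members at least 2-fold lower, 11 held these letters. The longer GAGGAAGT stood only before C1qc, 1 of 24 members (4.17%), against 2.69% of listed genes. AGGAAGTG, which overlaps it by 7 letters, stood before C1qc and Fcrls, 8.33% of members against 3.68% of listed genes, and GGAAGTGA before Laptm5, 4.17% against 3.73%. The TATAAA letters of a TATA box stood before 5 members (20.8%, against 8.52%), TGANTCA before 3 (12.5%, against 5.64%) and TTNCNNAA before 12 (50.0%, against 32.8%). CCGGAAGT and TTGCGCAA stood before 0 members, against 5.79% and 0.261% of listed genes. These 9 motifs were chosen with the sequences in view, and a match is only a description of letters. A composite motif for ETS and interferon regulatory factors and a motif for NF-kappaB were also looked at first and are not given here. The window was chosen after a first search of 300 bases, which run past the RefSeq gene start. The 250 bases still held annotated exonic bases in 14 of the 24 members, since GENCODE M21 places other starts further upstream or another gene there, so some matches lie in transcribed sequence. In the 300 bases GAGGAA stood in 15 of the 24 members (62.5%, against 30.4% of listed genes) and GAGGAAGT in 3, namely C1qc, Cd53 and Ctss (12.5%, against 3.31%). AGGAAGTG stood there in 4 (16.7%, against 4.61%) and GGAAGTGA in 5 (20.8%, against 4.99%), so the counts of these longer motifs depend on the window, while those of the other 5 motifs were the same in both. The windows of the members also held fewer CG dinucleotides, a median of 4 in the 24 members against 15 in all listed genes, with 0 before Marco and 13 before Lgals3.

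The core genes of the myeloid lineage were all lower. Their sum over 11 listed genes was 243 counts in the knockdown and 1075 in the control library, a ratio of 0.242 (0.209 to 0.278). Coro1a alone gave 224 of these knockdown counts and 695 of these control counts, so that ratio mostly reflects Coro1a. Each of the 11 was at least 2-fold lower with an interval below 1. Spi1 had 0 counts in the knockdown and 32 in the control library, at least 9.98-fold lower. Csf1r had 0 knockdown and 21 control counts, at least 6.55-fold lower, although it shares 873 exonic bases with Hmgxb3 on the opposite strand and the sources used here do not say whether counting used strand. Hmgxb3 had 466 counts in the knockdown and 480 in the control library, beside the 0 counts of Csf1r in the knockdown library. Ptprc, the leukocyte phosphatase CD45, had 0 knockdown and 11 control counts, at least 3.43-fold lower. The lineage regulator, the growth factor receptor and the pan-leukocyte marker were all at 0 in the knockdown library.

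Surface proteins and adaptors of leukocytes followed the same direction. Laptm5, a lysosomal membrane protein of blood cells, had 1 count in the knockdown and 136 in the control library, a ratio of 0.00786 (0.000197 to 0.0445). Cd52, a small glycoprotein of the leukocyte surface, had 0 knockdown and 33 control counts, at least 10.3-fold lower, and shares 172 exonic bases with Crybg2, which had 3 counts in each library. Tyrobp (DAP12) and Fcer1g, the adaptors through which many receptors of these cells signal, had 1 knockdown and 10 control counts and 1 knockdown and 16 control counts. Their ratios were 0.107 (0.00246 to 0.751) and 0.0668 (0.00159 to 0.430). Cd53, a tetraspanin, had 0 knockdown and 6 control counts, which bounds it at only 1.87-fold lower. Its interval ended at 0.908, so its place among the genes at least 2-fold lower rests on few counts.

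Genes of the leukocyte cytoskeleton and platelet or leukocyte signalling kept some counts. Lcp1, the actin-bundling protein L-plastin, had 4 counts in the knockdown and 64 in the control library, a ratio of 0.0668 (0.0177 to 0.179). Plek, the protein kinase C substrate pleckstrin, had 12 knockdown and 51 control counts, a ratio of 0.251 (0.122 to 0.478), and shares 199 exonic bases with Cnrip1, which had 294 knockdown and 424 control counts. Coro1a, an actin regulator of leukocytes that neurons also make, had 224 knockdown and 695 control counts, a ratio of 0.344 (0.295 to 0.401). Coro1a alone made up 33.7% of the summed counts in the knockdown and 28.1% in the control library. Without it the sum was 441 counts in the knockdown and 1776 in the control library, a ratio of 0.265 (0.239 to 0.295).

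Genes of microglia and tissue macrophages mostly had few counts, and Adgre1 and Fcrls had the most of them in the control library. Adgre1, which encodes the macrophage antigen F4/80, had 1 count in the knockdown and 87 in the control library, a ratio of 0.0123 (0.000307 to 0.0703). Fcrls, an Fc receptor-like scavenger protein of microglia, had 0 knockdown and 59 control counts, at least 18.4-fold lower. Both had at least 59 counts in the control library and at most 1 in the knockdown library. Cx3cr1, the fractalkine receptor, had 0 knockdown and 8 control counts, at least 2.50-fold lower. P2ry12, the purine receptor of resting microglia, had 4 knockdown and 9 control counts, a ratio of 0.475 (0.107 to 1.70), which cannot be told from 1 at this depth, and its log2 fold of -0.98 lay just within 2-fold. Aif1, which encodes the calcium-binding protein IBA1, had 17 knockdown and 34 control counts, a ratio of 0.534 (0.280 to 0.983), within 2-fold by the log2 fold of -0.88.

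The 3 chains of complement C1q, the recognition molecule of the classical pathway, lie next to each other on chromosome 4. C1qb had 0 counts in the knockdown and 14 in the control library, and C1qc had the same counts, each at least 4.37-fold lower. C1qa had 5 knockdown and 15 control counts, a ratio of 0.356 (0.101 to 1.03). In sum the chains had 5 counts in the knockdown and 43 in the control library, a ratio of 0.124 (0.0384 to 0.313), so all 5 knockdown counts belonged to C1qa.

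Receptors for microbes and debris differed among themselves. Marco, a scavenger receptor with a collagen-like stalk, had 0 counts in the knockdown and 144 in the control library. At the floor it was at least 44.9-fold lower, with an interval up to 0.0277. Cd14, a co-receptor for lipopolysaccharide, had 34 knockdown and 84 control counts, a ratio of 0.433 (0.281 to 0.651). Tlr2, the Toll-like receptor for bacterial lipoproteins, had 17 knockdown and 20 control counts, a ratio of 0.908 (0.447 to 1.83). Cd84, an adhesion receptor of the SLAM family, had 3 knockdown and 11 control counts, a ratio of 0.291 (0.0522 to 1.10). The intervals of Tlr2 and Cd84 held 1, while those of Cd14 and Marco lay below it.

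Among lysosomal and secreted products, the lysozyme gene was lower and the galectin gene was not. Lyz2, the lysozyme of macrophages, had 16 counts in the knockdown and 309 in the control library, a ratio of 0.0553 (0.0312 to 0.0913). Its near-identical copy Lyz1 has no row in the table analysed here, and how reads shared between them were counted is not given in the sources used here, so the Lyz2 value is uncertain to that extent. Ctss, the cysteine protease cathepsin S, had 1 knockdown and 45 control counts, a ratio of 0.0237 (0.000588 to 0.139). Cd68, a glycoprotein of lysosomes and endosomes, had 151 knockdown and 215 control counts, a ratio of 0.7505 (0.605 to 0.928). Lgals3, the carbohydrate-binding protein galectin-3, had 76 knockdown and 60 control counts, a ratio of 1.35 (0.952 to 1.93). Both Cd68 and Lgals3 lay within 2-fold, and the interval of Lgals3 held 1.

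The subunits of the phagocyte NADPH oxidase differed in their ratios. Cybb, the catalytic subunit gp91phox, had 1 count in the knockdown and 25 in the control library, a ratio of 0.0427 (0.00104 to 0.261). Cyba, its partner p22phox, which other oxidases of the family also use, had 52 knockdown and 44 control counts, a ratio of 1.26 (0.829 to 1.93). Of 3 further genes of the complex, 2 were at least 2-fold lower, against 12.6% of all listed genes. These 2 were Ncf1 with 3 knockdown and 14 control counts and Ncf4 with 0 knockdown and 9 control counts. The exception was Rac1, a small GTPase of nearly all cells, with 4828 counts in the knockdown and 6114 in the control library. Acod1, which makes itaconate in activated macrophages, had 0 knockdown and 49 control counts, at least 15.3-fold lower.

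The chemokines, which attract other leukocytes, also ranged between 0 knockdown counts and values within 2-fold. Ccl3 had 0 counts in the knockdown and 58 in the control library, at least 18.1-fold lower. Ccl4, its neighbour on chromosome 11, had 0 knockdown and 6 control counts, a bound of only 1.87-fold lower. Ccl2, a monocyte attractant that other cell types make too, had 44 knockdown and 86 control counts, a ratio of 0.547 (0.371 to 0.795), within 2-fold. Among 8 further chemokines and inflammatory cytokines with a row, 5 were at least 2-fold lower and 0 higher. The shares over all listed genes were 12.6% and 11.7%. Of the 5 lower, 3 had an interval below 1, where 8.37% of all listed genes were at least 2-fold lower with such an interval. Tnf had 2 counts in the knockdown and 29 in the control library, a ratio of 0.0737 (0.00852 to 0.291), and Ccl9 had 0 knockdown and 27 control counts, at least 8.42-fold lower. Cxcl10, with 49 knockdown and 37 control counts, and Cxcl1, with 24 knockdown and 29 control counts, lay within 2-fold and had intervals that held 1.

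**Figure D2:**
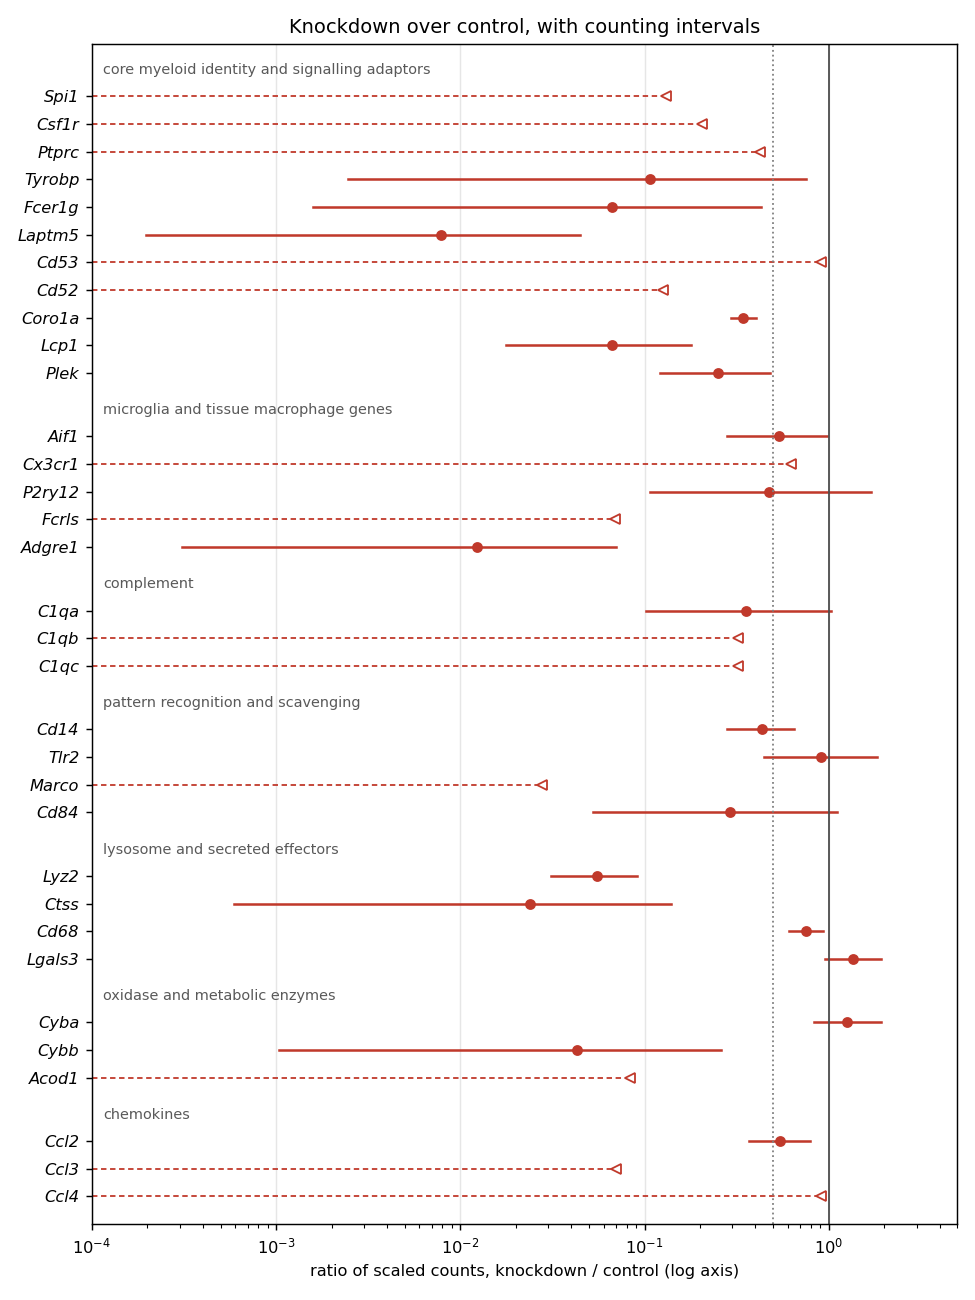
Ratio of scaled counts, knockdown over control (log axis), with its 95% counting interval for each gene, and for genes at 0 in the knockdown library a dashed line up to the upper end of the interval (open triangle). The solid line marks a ratio of 1 and the dotted line 0.5, and the genes at 0 with the lowest upper ends are Marco at 0.0277 and Fcrls at 0.0689.

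The ratios of the members spread more widely than their counting intervals. The ratio of the summed counts, 0.288, lay inside the interval of 14 of the 33 genes, above the interval of 13 and below the interval of 6. The 6 genes with intervals above it were Coro1a, Tlr2, Cd68, Lgals3, Cyba and Ccl2. The 13 with intervals below it included Marco, Laptm5, Lyz2, Adgre1, Fcrls, Ccl3 and Acod1. Without Lgals3, Cyba, Ccl2, Cd68, Tlr2 and Lcp1, the ratio of the sum was 0.173 (0.153 to 0.195), and without Coro1a as well it was 0.0805 (0.0648 to 0.0991). Of these 7 genes, 6 are those with intervals above the summed ratio, so a lower value follows from leaving them out.

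**Figure D3:**
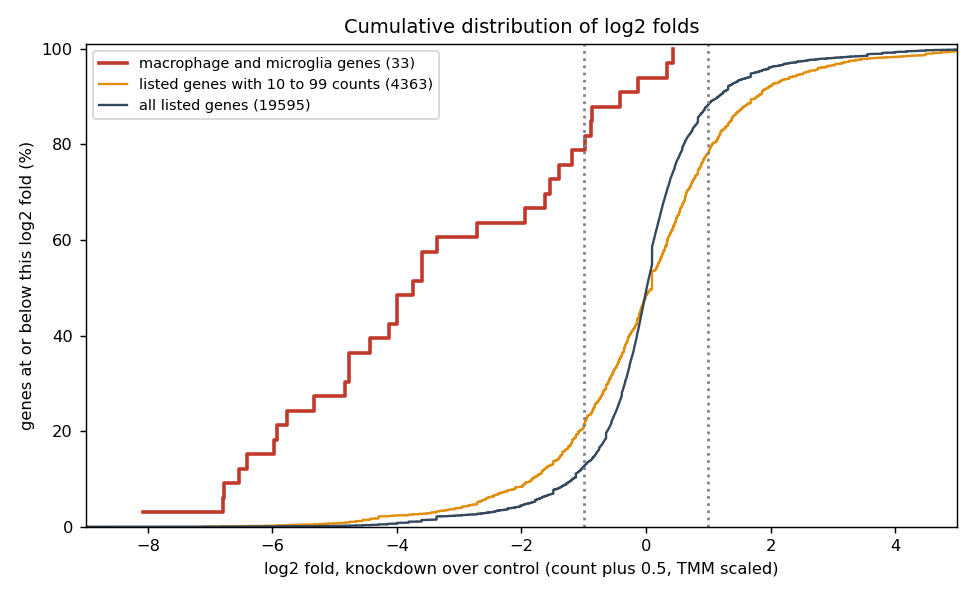
Cumulative share of genes (%) at or below each log2 fold, knockdown over control, for the 33 macrophage and microglia genes, for 4363 listed genes with 10 to 99 counts over both libraries and for all 19595 listed genes, with dotted lines at a 2-fold difference. The curve of the 33 genes lies left of both others, with a median of -3.75 against 0.01 for all listed genes.

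Per length of merged exons, the order of the genes differed between the libraries. In the knockdown library the highest level was that of Cd68 at 7.62 RPKM (CPM per kilobase of merged exon, computed here with GENCODE M21), followed by Coro1a at 5.10, Cyba at 3.17, Lgals3 at 2.59 and Ccl2 at 2.45 RPKM. In the control library it was Coro1a at 14.8 RPKM, followed by Lyz2 at 13.9, Cd68 at 10.1, Ccl3 at 4.49, Ccl2 at 4.48 and Marco at 4.44 RPKM. Lyz2 and Cd14 stood at 0.771 and 1.24 RPKM in the knockdown library, and Ccl3 and Marco at 0.

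The genes that flank the members mostly lay within 2-fold, as did most listed genes. The 26 members at least 2-fold lower had 46 nearest listed neighbours outside the list. Of these neighbours, 8 were at least 2-fold lower, 4 at least 2-fold higher and 34 within 2-fold. Over all listed genes, 12.6% were at least 2-fold lower and 11.7% at least 2-fold higher. The median log2 fold of the neighbours was 0.15. Sdc3, beside Laptm5, had 13278 counts in the knockdown and 14167 in the control library, a ratio of 1.002 (0.978 to 1.03). Ephb2, beside the C1q genes, had 1153 knockdown and 919 control counts, a ratio of 1.34 (1.23 to 1.46). Of the 4 higher neighbours, Hcst, which encodes the leukocyte adaptor DAP10 beside Tyrobp, had 4 knockdown and 1 control counts, with an interval that held 1. Of the 8 lower neighbours, Vav1 and Ccl9 are themselves genes of leukocytes, and Ctsk, beside Ctss, encodes a protease of osteoclasts. Vav1, which lies next to Adgre1 and activates small GTPases of the cytoskeleton, had 0 counts in the knockdown and 28 in the control library, at least 8.73-fold lower.

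Related genes that are no members were followed by lists. The counts of each list stand beside the 12.6% of all listed genes at least 2-fold lower and the 11.7% at least 2-fold higher. Of 13 genes of myeloid signalling with a row, 8 were at least 2-fold lower and 0 higher. By summed count, the first 4 were Lyn with 403 counts in the knockdown and 531 in the control library, Syk with 271 knockdown and 354 control counts, Plcg2 with 70 knockdown and 39 control counts, and the leukocyte GTPase Rac2 with 2 knockdown and 95 control counts. The ratio of Rac2 was 0.0225 (0.00269 to 0.0835), while those of Lyn, Syk and Plcg2 were 0.811, 0.818 and 1.92. Of 6 Fc receptors, complement receptors and leukocyte integrins with a row, 5 were at least 2-fold lower. Of these 5, 3 had an interval below 1, where 8.37% of all listed genes were at least 2-fold lower with such an interval. The exception among the 6 was Cr1l, a complement regulator of many rodent tissues, with 305 knockdown and 339 control counts. C3ar1, the receptor for the complement fragment C3a, had 1 knockdown and 39 control counts, a ratio of 0.0274 (0.000677 to 0.162). C5ar1 had 1 knockdown and 16 control counts. Itgb2, the shared chain of the leukocyte integrins, had 4 knockdown and 13 control counts, with an interval that held 1.

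Lists for resting microglia and for border macrophages were small, and no test compared them. Of 6 genes of resting microglia with a row, 2 were at least 2-fold lower, 1 at least 2-fold higher and 3 within 2-fold, and Siglech, Gpr34, P2ry13, Slc2a5 and Csf3r had no row. The first 3 by summed count are also made by neural cells, and Cst3, the protease inhibitor cystatin C, had 20584 counts in the knockdown and 4540 in the control library, a ratio of 4.84 (4.69 to 5.004). Sparc had 10674 knockdown and 6736 control counts, Sall1 1492 knockdown and 1496 control counts, and Olfml3 201 knockdown and 306 control counts. The lower 2 were Tmem119, with 0 knockdown and 6 control counts, and Selplg, with 2 knockdown and 5 control counts. The interval of Tmem119 ended at 0.908, and that of Selplg held 1. Of 5 genes of perivascular and border macrophages with a row, 3 were at least 2-fold lower and 1 higher. Ms4a7 had 0 counts in the knockdown and 31 in the control library, at least 9.67-fold lower. Stab1 had 6 knockdown and 44 control counts, a ratio of 0.146 (0.0507 to 0.343), Pf4 had 1 knockdown and 8 control counts, and Cd163 had 5 knockdown and 2 control counts with an interval that held 1.

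Other Toll-like receptors and genes of class II antigen presentation were followed as well. Of 5 other Toll-like receptors with a row, 0 were at least 2-fold lower and 2 higher, beside 12.6% and 11.7% of all listed genes. Higher were Tlr6, with 23 counts in the knockdown and 11 in the control library, and Tlr5, with 12 knockdown and 0 control counts. Tlr3 had 36 knockdown and 57 control counts and Tlr1 47 knockdown and 42 control counts. Of 5 class II antigen presentation genes with a row, 2 were at least 2-fold lower, beside the 12.6% of all listed genes, and 1 higher, and H2-DMa, with the most counts, had 106 knockdown and 118 control counts, a ratio of 0.960 (0.731 to 1.26). H2-Eb1 had 17 knockdown and 5 control counts and H2-Ab1 5 knockdown and 4 control counts. The lower 2 were Ciita, with 3 knockdown and 8 control counts, and Cd74, with 1 knockdown and 3 control counts, both with intervals that held 1.

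Ligands that act on macrophage receptors, which neural cells make, were all below their control level. Of 6 with a row, 2 were at least 2-fold lower and 4 within 2-fold. Csf1, the growth factor bound by the Csf1r protein, had 564 counts in the knockdown and 658 in the control library, a ratio of 0.916 (0.817 to 1.03). Cx3cl1, the ligand of the Cx3cr1 protein, had 955 knockdown and 1541 control counts, a ratio of 0.662 (0.610 to 0.718). Cd200, a neuronal surface protein that restrains myeloid cells, had 323 knockdown and 1246 control counts, a ratio of 0.277 (0.244 to 0.313), and Cd47 had 1145 knockdown and 1656 control counts. Csf1r had 0 knockdown counts, while the interval of its ligand Csf1 held 1.

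Lysosomal genes of most cells were mostly above their control level. Of 12 such genes, 10 had intervals above 1, 1 had an interval below 1, and 10 lay within 2-fold. The 1 below was Gpnmb, with 23 knockdown and 65 control counts, a ratio of 0.378 (0.224 to 0.617). Ctsb had 5810 counts in the knockdown and 4121 in the control library, Lamp1 5198 knockdown and 4186 control counts, Npc2 5269 knockdown and 3681 control counts, and Rab7 4511 knockdown and 4828 control counts. The ratio of Ctsb was 1.51 (1.45 to 1.57), beside 0.0237 for Ctss.

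**Figure D4:**
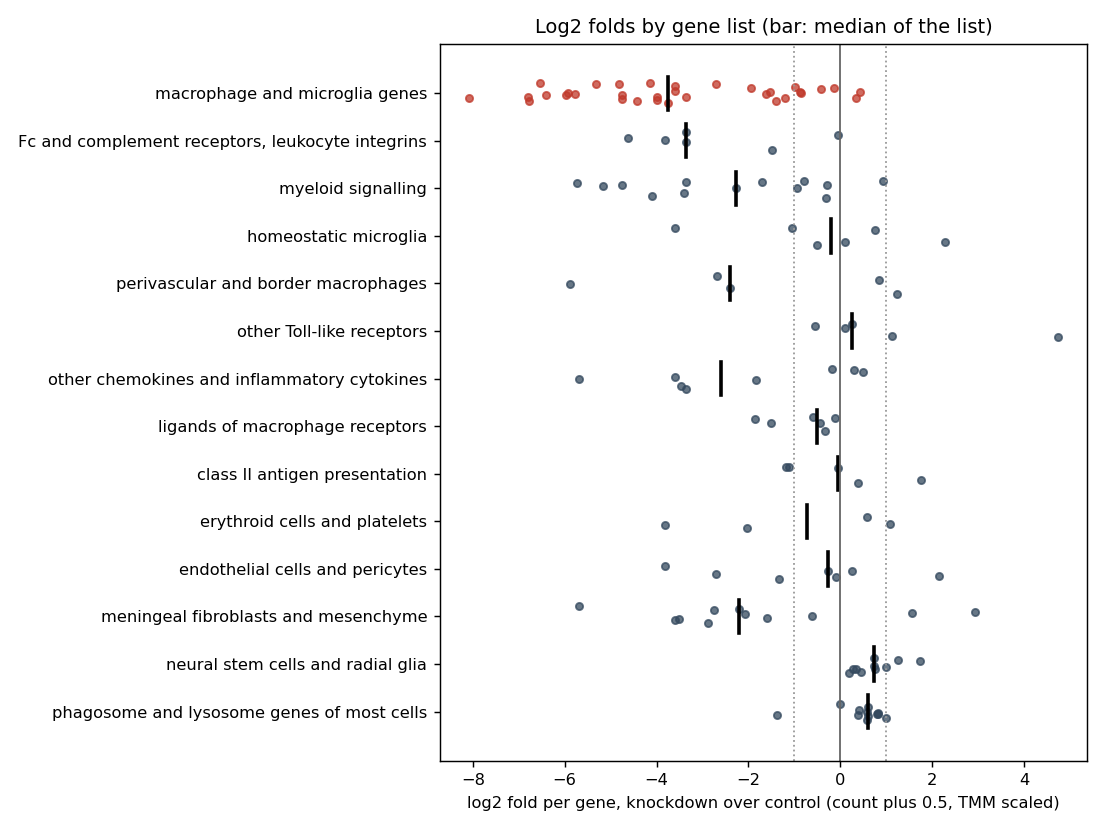
Log2 fold per gene, knockdown over control, for the macrophage and microglia genes (top row) and for other lists with at least 4 genes in the table, with a bar at each list's median and dotted lines at a 2-fold difference. Neural stem cell genes lie right of 0, with a median of 0.73, and the mesenchyme genes, with a median of -2.21, lie mostly left of it.

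Markers of other cell types differed between the libraries as well. Of 11 genes of meningeal fibroblasts and mesenchyme with a row, 8 were lower by 2-fold or more and 2, Pdgfra and Thy1, were higher. Lum was at 0 in the knockdown library, and the median log2 fold of the 11 was -2.21. In sum they had 258 CPM in the knockdown and 383 CPM in the control library. The high knockdown counts of Pdgfra and Thy1 weigh on that sum, so it is no measure of the level of these cell types. Acta2 had 360 counts in the knockdown and 4396 in the control library, Col1a1 182 knockdown and 585 control counts, Pdgfra 1924 knockdown and 267 control counts, and Thy1 1479 knockdown and 539 control counts. Of 7 endothelial and pericyte genes with a row, 3 were lower by 2-fold or more and 1, Pdgfrb, was higher. Cdh5 was at 0 in the knockdown library, and the median log2 fold of the 7 was -0.27. In sum they had 8.12 CPM in the knockdown and 6.53 CPM in the control library, and Pdgfrb weighs on that sum. Among them Kdr had 9 knockdown and 25 control counts, Flt1 2 knockdown and 17 control counts, Egfl7 20 knockdown and 26 control counts, and Pdgfrb 81 knockdown and 19 control counts. Pecam1 had 9 knockdown and 8 control counts and Rgs5 7 knockdown and 8 control counts, both within 2-fold. The part of these cell types in the values of the macrophage genes was not tested.

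Genes of other blood lineages were mostly without a row, and 2 platelet genes had the most counts among them. Of 10 genes of granulocytes and mast cells, Mpo alone had a row, with 2 counts in each library. Of 11 lymphocyte genes, Cd79a had 18 counts in the knockdown and 11 in the control library, and the other 10 had no row. Of 10 genes of erythroid cells and platelets, 4 had a row. Gp1bb, a platelet glycoprotein, had 53 knockdown and 234 control counts, Itga2b 110 knockdown and 55 control counts, the platelet chemokine Ppbp 0 knockdown and 7 control counts, and the globin gene Hba-a1, which has a near-identical copy, 3 knockdown and 2 control counts.

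The authors' deposited table marks 26 of the 33 members as down and significant, where it marks 10.2% of all listed genes so. In the authors' deposited table the log2 fold, knockdown over control, was -7.04 for Laptm5 and 0.38 for Lgals3. Its knockdown value for the 13 members at 0 counts is 0.0311 CPM rather than 0, so its folds for those genes depend on that value and are not given. The test behind those marks is not named in the file.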

How the data were processed

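Gene counts were taken as the authors deposited them, 1 raw count per gene for the knockdown and for the control library, per the file headers. The tools TopHat2 2.0.12, Bowtie2 2.2.3 and HTSeq 0.6.0 and the build mm9 are named in the submitters' processing notes, while 30 of the 33 members have the start and end of GENCODE M21 (GRCm38) and all 33 gene IDs were found there. The deposited normalised values are CPM. The deposited fold ratio and its log2 were quoted only where named as the authors', and the deposited p-values were not used. The lowest sum of counts over both libraries was 2.

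Counts were scaled with TMM factors (edgeR 4.0.16), 0.982 for the knockdown and 1.02 for the control library, with no expression minimum. The log2 fold used a prior count of 0.5. Intervals (95%) were exact conditional binomial, computed in Python 3.11.15 with scipy 1.17.1. Intervals cover counting error only, and floors only that of the knockdown count. PCR copies of 1 molecule are counted separately, and neither intervals nor floors allow for them. The calculation was tested on simulated data. Alternatives were DESeq2 1.42.0 size factors, total counts, a prior count of 5, a minimum of 1 CPM, other thresholds and sums without some members. The members and lists were chosen with earlier results of these data known. Some genes of the other lists are not reported here and enter no count. All members with a row are given, and of each other list up to 4 genes with the highest summed count. Neighbours and genes singled out at 0, with Tmem119, Selplg, Cd74, Gpnmb, Pecam1 and Rgs5, were named after their values were seen.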

Additional observations from a re-analysis of the deposited data

How the results depend on the processing

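With 1 library per group no replicate could be left out. No paired analysis was possible because each group holds 1 library and no test was made. The ratio of the summed counts stayed within its counting interval under both other scalings and without the 1 or the 5 members with the highest counts (0.265 to 0.3001), and was 0.173 without Lgals3, Cyba, Ccl2, Cd68, Tlr2 and Lcp1 and 0.0805 without these and Coro1a, a sum chosen after seeing the data. The median log2 fold was -1.62 with a prior count of 5 and -2.13 with genes at 0 placed at 3 counts. With a mean of at least 1 CPM, 12 of 18 members were at least 2-fold lower. That mean takes in both libraries, so members at 0 in the knockdown library, such as Marco, passed it through their control counts alone. Being lower was part of how such members passed, so the 12 of 18 is a description. The share of all listed genes under this filter is not given. The number at least 2-fold lower was 24 to 27 under the scalings, the prior count of 5 and the interval rule. At least 1.5-fold lower were 29, and at least 4-fold lower were 21, the latter against 4.47% of all listed genes. The share of all listed genes is not given for the other scalings, the prior count of 5 or 1.5-fold. With the prior count of 5, 8 of the 33 members' log2 folds left their counting interval. No member reversed its sign under an alternative once past 2-fold. Depth limits the genes with few control counts, such as Cd53, Ccl4, Cx3cr1 and P2ry12.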
